A study of Mus musculus with 8 samples.

Results

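The 42 genes described here encode the proteins that copy DNA in dividing cells and supply its building blocks. They were listed by name from their known roles, with earlier results of these data known. Counts and p-values of these genes are therefore descriptions and no independent support for a fall. All 42 were found among the 21878 genes of the deposited expression table. RNA was sequenced from astrocytes, glial cells that support neurons, isolated from P0 C57BL/6 mice labelled WT. The 4 cocktail libraries came from cells given IL-1α, TNFα and C1q together, the first 2 being cytokines and the last a complement protein, a mixture used to obtain reactive astrocytes that carry the complement fragment C3d. The 4 untreated libraries came from cells given no treatment. The labels used here give no dose, treatment time, cell density or age in culture. Nothing states that libraries of a group stem from different cultures or mice, so a p-value here measures only library-to-library spread, possibly technical.

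Chromosomal DNA is copied from origins that are first licensed. The origin recognition complex, Cdc6 and Cdt1 load a ring of the helicase subunits Mcm2 to Mcm7, and Cdc45, the GINS complex and Mcm10 turn the ring into an active helicase. Primase and the polymerases α, δ and ε then build the new strands on the sliding clamp Pcna, while ribonucleotide reductase, thymidylate synthase and thymidine kinase provide deoxynucleotides. Transcription of many of these genes rises as mammalian cells leave quiescence and enter S phase, and E2F transcription factors are known to act on many of their promoters. Astrocytes still divide around birth in the mouse brain and in culture.

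All 41 tested replication and nucleotide supply genes fell in cocktail libraries, and none rose. The typical gene stood at 44.2% of its untreated mean (median of all 42 genes), the range ran from 28.5% for Rrm2 to 87.5% for Pold2, and 27 of the 42 stood under 50%. Together the 42 genes took 0.0761% ± 0.00617 of all fragments in cocktail libraries and 0.154% ± 0.00773 in untreated libraries (SD, n = 4 each). Rrm2, the small subunit of ribonucleotide reductase, and Tk1, the cytosolic thymidine kinase, had the largest fitted changes. Pold2, an accessory subunit of polymerase δ, had the smallest.

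Values are FPKM, the fragments per kilobase of a gene as a share of its library, which puts levels of different genes on 1 scale per length. Changes are differences of mean log2(FPKM + 1), cocktail minus untreated, from limma fitted to the 11845 genes that reached 1 FPKM in 4 or more of the 8 libraries. A gene was called where its Benjamini-Hochberg adjusted p over all 11845 genes was under 0.05. Adding 1 FPKM makes the change of a weakly expressed gene look smaller than it is, so the percentage of the untreated mean is given as well. In the whole fit 41.1% of genes were called lower and 26.6% higher, so the call alone is common in these data. A fall of at least 1 on this log2 scale was less common: it was met by 18 of the 41 tested genes, against 4.56% of all tested genes. The median change was -0.90 over the 41 genes and -0.05 over all tested genes.

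**Figure D1:**
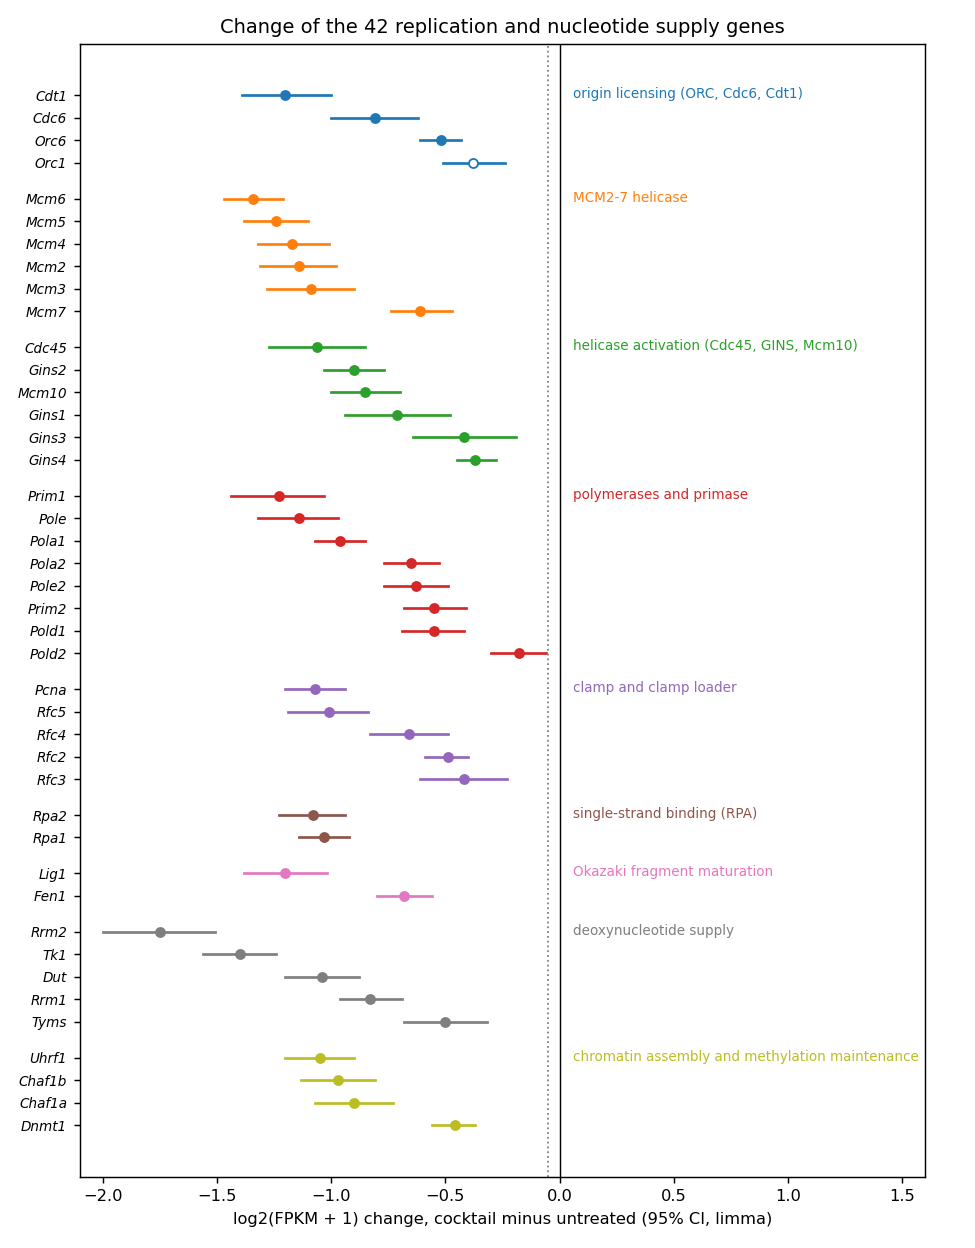
Fitted change of each of the 42 genes, cocktail minus untreated, in log2(FPKM + 1), grouped by role, with 95% confidence intervals of limma. Filled points are the 41 genes of the main fit, the open point is Orc1 from the fit without a filter, and the dotted line is the median of all tested genes at -0.05. All points lie below 0, from -1.75 for Rrm2 to -0.18 for Pold2.

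Of the 42 genes, 37 reached 1 FPKM in all 8 libraries. Gins1 and Pole2 were under 1 FPKM in some cocktail libraries, and Cdc6 and Mcm10 were under it in all 4, so that these last 2 entered the test through untreated libraries only. Orc1 was too low for the main fit. Without any filter all 42 genes were called lower, against 32.9% of 17258 genes lower and 20.3% higher. In 41 of the 42 genes every cocktail library lay below every untreated library, against 38.5% of all tested genes. Gins3 was the exception. limma voom on the recovered whole fragments called 41 of 41 genes lower, beside 41.4% of all genes lower and 26.7% higher.

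Rescaling the libraries moved the balance of calls over all genes but not the direction of these ones. With median-ratio rescaling 40 of the 41 genes were called lower, with a median of -0.83, while 33.6% of all genes were called lower and 36.1% higher. Higher calls then made up 51.8% of all calls, against 39.3% with the deposited scaling. With quantile normalization all 41 were called lower, with a median of -0.83, beside 35.6% of all genes lower and 33.2% higher. The gene lost under median-ratio rescaling was Pold2.

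Libraries of a group deviated in the same direction for most of these genes. Cocktail library 4 was the lowest cocktail library for 33 of the 42 genes, and cocktail library 2 the highest for 26. The median gene stood at 45.4%, 51.0%, 45.9% and 39.6% of its untreated mean in cocktail libraries 1 to 4. Among untreated libraries, library 2 was the lowest for 30 genes, with a median of 92.9% of the untreated mean. In 39 of the 42 genes the gap in FPKM between the lowest untreated and the highest cocktail value was larger than the SD of either group. The exceptions were Pold2 and Rfc3, whose groups were close, and Gins3. The same share over all tested genes was not taken, so this count is a description.

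**Figure D2:**
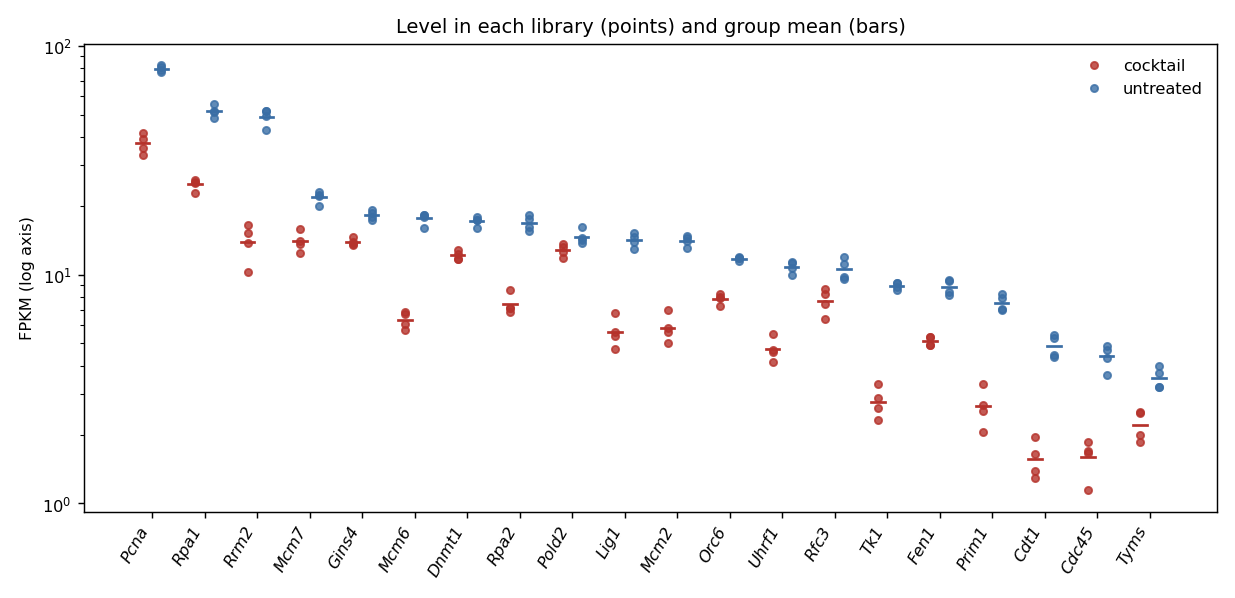
FPKM on a log axis of the 20 genes whose values are given library by library below under the naming rule, ordered by untreated mean, with cocktail left of untreated for each gene. Points are libraries and bars are group means. In each of these genes all 4 cocktail points lie below all 4 untreated points, with Pcna highest at 37.4 and 79.4 FPKM and Pold2 closest at 12.8 and 14.6 FPKM.

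The cells were checked against markers. Gfap had 182 to 193 FPKM in cocktail and 372 to 444 FPKM in untreated libraries, and the 12 astrocyte markers summed to 1222 to 1251 FPKM in cocktail and 1419 to 1574 FPKM in untreated libraries, with 8 of 11 tested markers lower and 2 higher. Among the lower ones, S100b was under 1 FPKM in every cocktail library and so entered the test through untreated libraries only. The 2 higher ones were Aqp4 (means of 253 FPKM in cocktail and 165 FPKM in untreated libraries) and Slc1a2 (52.3 and 9.73 FPKM). The oligodendrocyte marker Mog was at 0 in every library. Microglia and macrophage markers summed to 46.2, 45.4, 74.6 and 95.3 FPKM in cocktail libraries 1 to 4, against 50.9 to 52.2 FPKM in untreated libraries. Of the 10 tested among 16 markers of this list, 5 were called higher and 1 lower. Markers of the oligodendrocyte lineage summed to 123 to 127 FPKM in cocktail and 212 to 226 FPKM in untreated libraries, with 4 of 6 tested lower and 1 higher, most of the sum being Olig1. Neuron and neuroblast markers summed to 52.5 to 59.8 FPKM in cocktail and 140 to 158 FPKM in untreated libraries, mostly Stmn2. Of 4 tested, 2 were called lower (Stmn2 and Map2) and 1 higher (Gad1, by 0.99), and Tubb3 was not called. Rbfox3 and Snap25 were at or near 0. Fibroblast markers summed to 97.4 to 127 FPKM in cocktail and 123 to 146 FPKM in untreated libraries, with 3 of 6 tested lower and 2 higher. Col1a1 and Col1a2 carried most of that sum, while Dcn and Lum were higher. Lum was under 1 FPKM in every untreated library and so entered the test through cocktail libraries only. The list's mean log2(FPKM + 1) was 3.28 to 3.65 in cocktail and 2.86 to 3.03 in untreated libraries. Endothelial markers summed to 1.396 to 1.798 FPKM in cocktail and 4.85 to 5.37 FPKM in untreated libraries. Cldn5 was at 0 throughout, and Kdr, the 1 tested marker of that list, was called lower, with a change of -1.63, having entered the test through untreated libraries only. In bulk RNA, fewer cells of a type and less RNA per cell cannot be told apart, and the part of these marker differences in the falls was not tested. Without cocktail libraries 3 and 4, whose microglial markers were highest, all 41 genes were called lower with a median of -0.85. Without cocktail libraries 1 and 2 the median was -0.98 and 40 genes were called, Pold2 being lost. Every cocktail library had lower astrocyte, oligodendrocyte-lineage and neuron sums than any untreated library. Leaving out cocktail libraries therefore does not test the part of these markers in the falls.

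Promoters were read for motifs known from this class of genes. RefSeq's promoter table of GRCm38.p6, which gives 250 bases before to 50 bases after a gene's start, held 35 of the 42 genes. A match to an E2F-type motif (TTCCCGC or TTGGCGC or TTCGCGC or TTGCCGC, on either strand, at the first listed start) was found in 20 of the 35, or 57.1%. The share was 9.69% of all 27025 promoters in the table and 17.8% of the 9545 that belong to genes of the fit. The CCAAT box was found in 62.9% of the 35 promoters, against 37.9% of all promoters and 39.4% of those of tested genes. The motif TTTGAA, called CHR and known from genes of mitosis, was found in 14.3%, against 18.1% and 11.4%. It was found in 12 of the 17 promoters of a 20-gene mitosis list, or 70.6%, where the E2F-type motifs were found in 17.6%. The high E2F-type share was not particular to the 42 genes. These motifs were found in 6 of 10 promoters of further subunits of the same complexes, whose median change was only -0.19. In the other pathway lists read below, the share ran from 27.3% (thymidylate and folate cycle) to 52.9% (replication checkpoint and fork repair). A match is a description of these letters and does not show that a factor binds there.

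**Figure D3:**
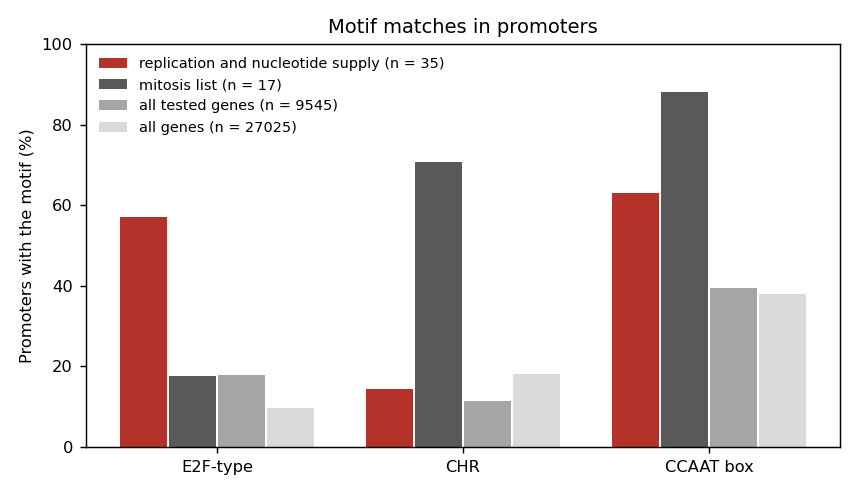
Percentage of promoters that hold at least 1 match to the E2F-type, CHR or CCAAT motif on either strand, for 35 of the 42 genes, 17 genes of the mitosis list, 9545 tested genes and all 27025 promoters of the table. The E2F-type bar is at 57.1% for the replication genes and at 17.6% for the mitosis genes, and the CHR bar is at 14.3% and 70.6%. The other pathway lists are not drawn.

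The promoters of 5 genes are printed 5′ to 3′ because these genes mark the extremes of the fitted change in log2(FPKM + 1): Mcm6 and Mcm7 had the largest and smallest change of the helicase ring, Prim1 and Pold2 those of the polymerases, and Rrm2 the largest of all. By percentage Pole fell further than Prim1, to 32.4% against 35.2% of the untreated mean. Capitals mark the E2F-type matches, and matches that overlap run together. The windows are chr1:128359656-128359955 on the minus strand, chr5:138171834-138172133 on the minus strand, chr10:128014965-128015264 on the plus strand, chr11:5878207-5878506 on the minus strand and chr12:24708004-24708303 on the plus strand of GRCm38.p6.
Mcm6: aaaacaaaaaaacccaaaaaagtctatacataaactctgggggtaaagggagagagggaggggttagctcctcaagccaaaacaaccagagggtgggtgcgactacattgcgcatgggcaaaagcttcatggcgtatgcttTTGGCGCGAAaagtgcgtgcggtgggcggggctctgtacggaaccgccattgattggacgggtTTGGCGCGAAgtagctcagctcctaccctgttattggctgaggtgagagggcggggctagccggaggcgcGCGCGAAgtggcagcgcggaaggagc
Mcm7: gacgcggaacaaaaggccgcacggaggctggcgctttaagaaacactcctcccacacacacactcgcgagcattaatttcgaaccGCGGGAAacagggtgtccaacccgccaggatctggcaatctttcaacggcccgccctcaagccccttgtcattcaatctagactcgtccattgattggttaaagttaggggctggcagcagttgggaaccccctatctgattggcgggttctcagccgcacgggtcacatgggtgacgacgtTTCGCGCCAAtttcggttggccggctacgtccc
Prim1: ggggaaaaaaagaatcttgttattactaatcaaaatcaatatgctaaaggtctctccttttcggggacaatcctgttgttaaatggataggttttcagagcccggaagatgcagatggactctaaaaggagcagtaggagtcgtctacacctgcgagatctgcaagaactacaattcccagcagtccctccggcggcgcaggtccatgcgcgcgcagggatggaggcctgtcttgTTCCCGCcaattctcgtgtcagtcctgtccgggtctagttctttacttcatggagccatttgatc
Pold2: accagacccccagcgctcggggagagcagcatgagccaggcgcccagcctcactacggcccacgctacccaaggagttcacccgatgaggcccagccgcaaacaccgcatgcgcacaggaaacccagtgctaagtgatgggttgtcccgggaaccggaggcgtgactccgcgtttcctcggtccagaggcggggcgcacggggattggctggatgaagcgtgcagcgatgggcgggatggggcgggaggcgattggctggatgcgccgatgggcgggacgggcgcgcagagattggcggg
Rrm2: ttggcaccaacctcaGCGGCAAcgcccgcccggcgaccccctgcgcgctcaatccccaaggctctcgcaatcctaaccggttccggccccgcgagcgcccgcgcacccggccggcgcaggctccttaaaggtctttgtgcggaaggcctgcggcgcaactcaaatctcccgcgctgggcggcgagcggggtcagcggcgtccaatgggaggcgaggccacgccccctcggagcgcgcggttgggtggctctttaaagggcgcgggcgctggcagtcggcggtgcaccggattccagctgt

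Mcm6 held 5 matches, 4 of them in 2 places where a match on each strand overlapped, the first between 109 and 100 bases and the second between 46 and 37 bases before the start. Mcm7 held 3, Prim1 and Rrm2 held 1 each, and Pold2 held none of the 4 motifs but 3 CCAAT boxes. The Prim1 match lay 15 to 9 bases before the start and the Rrm2 match 235 to 229 bases before it. Genes with a match stood at a median of 43.6% (28.5% to 72.3%, 20 genes) and genes without one at 47.1% (28.9% to 87.5%, 15 genes). The median was 44.1% for the 11 genes with 1 match and 41.8% for the 9 with 2 or more. The ranges overlapped widely, and the relation was not tested.

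Origin licensing genes fell, by percentage Orc6 less than the others. Cdt1, which brings the helicase ring to origins and lies on chromosome 8 from 122568015 to 122573130 of GRCm38, had 1.295, 1.96, 1.38 and 1.64 FPKM in cocktail libraries 1 to 4, against 4.45, 5.44, 5.27 and 4.36 FPKM in untreated libraries 1 to 4. Every cocktail value lay far below every untreated value. The gene stood at 32.2% of the untreated mean (log2 change -1.20, standard error 0.089, limma adjusted p = 1.8e-07). Orc6, the smallest subunit of the origin recognition complex (chromosome 8 from 85299632 to 85308279), had 8.24, 7.29, 7.99 and 7.895 FPKM in cocktail libraries 1 to 4, against 11.4, 11.9, 11.8 and 11.9 FPKM in untreated libraries 1 to 4. The groups did not overlap, and the fall to 66.97% was the smallest of this role (log2 change -0.52, standard error 0.041, limma adjusted p = 2.8e-07). Cdc6, the loading ATPase, averaged 0.604 ± 0.207 FPKM in cocktail libraries, against 1.797 ± 0.1403 FPKM in untreated libraries (SD, n = 4 each), which is 33.6%. Part of its transcript has a processed pseudogene copy, so its fragments may be shared. Orc1, the largest subunit, averaged 0.238 ± 0.0788 FPKM with the cocktail and 0.606 ± 0.116 FPKM untreated (SD, n = 4 each), on 14 to 29 fragments per cocktail library and 41 to 68 per untreated library. It was called lower without the filter (log2 change -0.38, limma adjusted p = 5.7e-04).

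The 6 genes of the Mcm2 to Mcm7 ring all fell, with a median change of -1.15, but not evenly. Mcm6 (chromosome 1 from 128331575 to 128359705) had 6.08, 6.88, 6.69 and 5.705 FPKM in cocktail libraries 1 to 4, against 18.3, 16.02, 17.9 and 18.1 FPKM in untreated libraries 1 to 4. Its highest cocktail value was well under its lowest untreated value, and it stood at 36.1% (log2 change -1.34, standard error 0.058, limma adjusted p = 1.4e-09). Mcm2 (chromosome 6 from 88883474 to 88898780) had 5.85, 6.97, 5.598 and 5.0 FPKM in cocktail libraries 1 to 4, against 14.1, 13.1, 14.4 and 14.7 FPKM in untreated libraries 1 to 4. It stood at 41.6% (log2 change -1.14, standard error 0.074, limma adjusted p = 5.3e-08). Mcm7 (chromosome 5 from 138164583 to 138172111) had 14.02, 15.8, 13.6 and 12.5 FPKM in cocktail libraries 1 to 4, against 22.8, 19.97, 21.9 and 22.3 FPKM in untreated libraries 1 to 4. It had the highest mean of the 6 subunits in both groups and stood at 64.2% of the untreated mean (log2 change -0.61, standard error 0.062, limma adjusted p = 3.2e-06). A processed pseudogene matches 72.8% of a Mcm7 transcript at 97.7% identity, so its level is uncertain where the counting shared fragments. Mcm5 averaged 4.11 ± 0.435 FPKM in cocktail libraries, against 11.05 ± 0.672 FPKM in untreated libraries, Mcm4 averaged 8.495 ± 0.834 FPKM with the cocktail and 20.3 ± 1.75 FPKM untreated, and Mcm3 averaged 6.72 ± 0.942 FPKM with the cocktail and 15.4 ± 1.54 FPKM untreated (SD, n = 4 each). These 3 stood at 37.2%, 41.8% and 43.5%.

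Helicase activation genes spanned a wide range. Cdc45, a core part of the active helicase (chromosome 16 from 18780447 to 18811972), had 1.69, 1.86, 1.66 and 1.14 FPKM in cocktail libraries 1 to 4, against 4.34, 3.64, 4.69 and 4.89 FPKM in untreated libraries 1 to 4. The lowest untreated library was 1.78 FPKM above the highest cocktail library, and the gene stood at 36.2% (log2 change -1.06, standard error 0.096, limma adjusted p = 1.1e-06). Mcm10, which helps the loaded helicase to start, averaged 0.482 ± 0.107 FPKM in cocktail libraries, against 1.66 ± 0.128 FPKM in untreated libraries (SD, n = 4 each). It stood at 28.9%, close to Rrm2, yet its fitted change was only -0.85 because of the added 1 FPKM. On recovered fragments voom put it at -1.81.

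The 4 GINS subunits, which form 1 complex, stood at different percentages of their untreated means. Gins1 averaged 1.004 ± 0.296 FPKM with the cocktail and 2.26 ± 0.315 FPKM untreated, and Gins2 averaged 6.24 ± 0.538 FPKM with the cocktail and 12.5 ± 0.894 FPKM untreated (SD, n = 4 each), or 44.3% and 49.96%. Exons of Gse1 on the opposite strand cover 67.3% of the exon bases of Gins2, and the sources do not say whether strand was used in counting. Gins3 had 1.96, 2.06, 2.61 and 1.45 FPKM in cocktail libraries 1 to 4, against 3.31, 2.59, 3.097 and 2.99 FPKM in untreated libraries 1 to 4. Cocktail library 3 lay just above the lowest untreated library, and the gene stood at 67.4% (log2 change -0.42, standard error 0.102, limma adjusted p = 0.0035). Gins4 (chromosome 8 from 23226610 to 23237668) had 13.5, 14.6, 13.8 and 13.7 FPKM in cocktail libraries 1 to 4, against 18.6, 17.3, 17.8 and 19.1 FPKM in untreated libraries 1 to 4. The groups were apart by a small margin, with Gins4 at 76.3% (log2 change -0.37, standard error 0.040, limma adjusted p = 5.2e-06).

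In polymerases α, δ and ε and in primase, the catalytic subunit had the larger fitted fall of its pair, and the ratio of the 2 subunits differed between the groups in 3 of these 4 pairs, as given below. Prim1, the catalytic subunit of primase (chromosome 10 from 128015215 to 128030030), had 2.695, 2.53, 3.34 and 2.06 FPKM in cocktail libraries 1 to 4, against 7.06, 7.0, 8.22 and 7.901 FPKM in untreated libraries 1 to 4. Its highest cocktail value lay 3.66 FPKM under its lowest untreated value, and the gene stood at 35.2% (log2 change -1.23, standard error 0.093, limma adjusted p = 2.0e-07). Prim2, the large subunit of primase, averaged 3.55 ± 0.308 FPKM in cocktail libraries, against 5.64 ± 0.389 FPKM in untreated libraries (SD, n = 4 each), or 62.98%. Pole, the catalytic subunit of the leading-strand polymerase ε, averaged 1.36 ± 0.275 FPKM with the cocktail and 4.203 ± 0.212 FPKM untreated, and its partner Pole2 averaged 0.872 ± 0.124 FPKM with the cocktail and 1.89 ± 0.126 FPKM untreated (SD, n = 4 each). They stood at 32.4% and 46.1%. Pola1 and Pola2, the catalytic and accessory subunits of polymerase α, stood at 41.8% and 56.2%, with means of 2.08 and 2.67 FPKM in cocktail libraries and 4.97 and 4.75 FPKM in untreated libraries. Pold1, the catalytic subunit of polymerase δ, averaged 3.299 ± 0.292 FPKM with the cocktail and 5.301 ± 0.341 FPKM untreated (SD, n = 4 each), or 62.2%.

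Pold2, the accessory subunit that joins Pold1 (chromosome 11 from 5872180 to 5878256), changed least of the 42 genes. It had 11.8, 13.2, 13.5 and 12.5 FPKM in cocktail libraries 1 to 4, against 16.1, 14.2, 14.4 and 13.8 FPKM in untreated libraries 1 to 4. The highest cocktail and the lowest untreated library were 0.226 FPKM apart. Pold2 stood at 87.5% (log2 change -0.18, standard error 0.053, limma adjusted p = 0.011). Its call was lost under median-ratio rescaling (log2 change -0.11, limma adjusted p = 0.091) and without cocktail libraries 1 and 2 (-0.15, limma adjusted p = 0.053).

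The clamp and the clamp loader differed in size of change. Pcna, the sliding clamp and the most abundant of the 42 genes (chromosome 2 from 132249286 to 132253180), had 35.6, 41.5, 39.3 and 33.2 FPKM in cocktail libraries 1 to 4, against 78.6, 76.4, 80.3 and 82.1 FPKM in untreated libraries 1 to 4. The groups were far apart, and the gene stood at 47.1% (log2 change -1.07, standard error 0.058, limma adjusted p = 1.0e-08). Its transcript shares 781 bases at 99.2% identity with a processed pseudogene, Pcna-ps2, so fragments may be shared between them. Rfc3, a small subunit of the clamp loader (chromosome 5 from 151642817 to 151651208), had 8.23, 8.65, 6.38 and 7.42 FPKM in cocktail libraries 1 to 4, against 11.96, 9.78, 11.2 and 9.53 FPKM in untreated libraries 1 to 4. Cocktail library 2 and untreated library 4 were 0.883 FPKM apart, and Rfc3 stood at 72.3% (log2 change -0.42, standard error 0.087, limma adjusted p = 0.001). The other small subunits Rfc2, Rfc4 and Rfc5 stood at 69.6%, 57.5% and 43.8%. Rfc5 also has a processed pseudogene copy.

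The 2 listed subunits of RPA, which coats single-stranded DNA, both fell. Rpa1, the large subunit (chromosome 11 from 75300259 to 75348454), had 25.4, 26.01, 25.1 and 22.8 FPKM in cocktail libraries 1 to 4, against 51.9, 48.1, 51.1 and 55.7 FPKM in untreated libraries 1 to 4. Rpa2, the middle subunit (chromosome 4 from 132768360 to 132778746), had 7.18, 8.54, 7.12 and 6.89 FPKM in cocktail libraries 1 to 4, against 18.2, 16.1, 15.5 and 17.5 FPKM in untreated libraries 1 to 4. Neither gene's groups overlapped. Rpa1 stood at 48.03% (log2 change -1.03, standard error 0.049, limma adjusted p = 3.1e-09) and Rpa2 at 44.1% (log2 change -1.08, standard error 0.066, limma adjusted p = 2.8e-08).

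Okazaki fragments, the short pieces of the lagging strand, are trimmed by the flap nuclease Fen1 and joined by the ligase Lig1. Lig1 (chromosome 7 from 13277175 to 13311426) had 5.63, 6.78, 5.39 and 4.72 FPKM in cocktail libraries 1 to 4, against 14.6, 12.9, 13.9 and 15.2 FPKM in untreated libraries 1 to 4. It stood at 39.8%, with wide separation of the groups (log2 change -1.20, standard error 0.082, limma adjusted p = 8.6e-08). Fen1 (chromosome 19 from 10199132 to 10204393) had 4.904, 5.32, 5.31 and 4.94 FPKM in cocktail libraries 1 to 4, against 8.11, 8.35, 9.46 and 9.41 FPKM in untreated libraries 1 to 4. It stood at 57.9% (log2 change -0.68, standard error 0.055, limma adjusted p = 3.6e-07). The antisense gene Gm10143 covers 78.8% of the exon bases of Fen1, so the value of Fen1 may include its reads if strand was not used.

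Deoxynucleotide supply held the largest fall of all and 1 of the smaller ones. Rrm2 (chromosome 12 from 24708254 to 24714146), the subunit of ribonucleotide reductase that carries its radical and is made mainly in S phase, had 13.8, 16.4, 15.2 and 10.3 FPKM in cocktail libraries 1 to 4, against 49.4, 42.6, 51.7 and 51.8 FPKM in untreated libraries 1 to 4. Its highest cocktail value lay 26.2 FPKM under its lowest untreated value. The gene stood at 28.5% (log2 change -1.75, standard error 0.113, limma adjusted p = 4.9e-08), and 419 bases of its transcript match a processed pseudogene. Rrm1, the large catalytic subunit, averaged 19.7 ± 1.53 FPKM in cocktail libraries, against 35.7 ± 2.58 FPKM in untreated libraries (SD, n = 4 each), or 55.2%.

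Tk1, the cytosolic kinase that salvages thymidine (chromosome 11 from 117815519 to 117826087), had 2.895, 3.31, 2.62 and 2.31 FPKM in cocktail libraries 1 to 4, against 9.196, 8.53, 8.83 and 9.19 FPKM in untreated libraries 1 to 4. The groups were widely separated, and the gene stood at 31.2% (log2 change -1.40, standard error 0.072, limma adjusted p = 6.2e-09). Tyms, thymidylate synthase (chromosome 5 from 30038546 to 30073645), had 1.98, 2.49, 2.51 and 1.86 FPKM in cocktail libraries 1 to 4, against 3.22, 3.22, 3.99 and 3.72 FPKM in untreated libraries 1 to 4. The gap between its groups was 0.708 FPKM, and it stood at 62.5% (log2 change -0.50, standard error 0.083, limma adjusted p = 1.9e-04). A stretch of 361 bases of a Tyms transcript matches transcripts of other genes at 95% identity or more. Dut, which hydrolyses dUTP and so keeps uracil out of DNA, averaged 3.79 ± 0.496 FPKM in cocktail libraries, against 8.81 ± 0.603 FPKM in untreated libraries (SD, n = 4 each), or 43.01%.

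New DNA is packed into chromatin by CAF-1 and its methylation is copied by Uhrf1 and Dnmt1. Uhrf1, which recognises hemimethylated CpG sites (chromosome 17 from 56303337 to 56323486), had 4.58, 5.5, 4.68 and 4.13 FPKM in cocktail libraries 1 to 4, against 10.7, 9.94, 11.4 and 11.2 FPKM in untreated libraries 1 to 4. The groups were far apart and the gene stood at 43.6% (log2 change -1.05, standard error 0.068, limma adjusted p = 5.4e-08), with a processed pseudogene matching 44.3% of its transcript. Dnmt1, the maintenance methyltransferase (chromosome 9 from 20907206 to 20959888), had 12.3, 12.8, 11.7 and 11.7 FPKM in cocktail libraries 1 to 4, against 17.9, 15.9, 17.3 and 17.3 FPKM in untreated libraries 1 to 4. It stood at 71.03% (log2 change -0.46, standard error 0.044, limma adjusted p = 1.6e-06), again with no overlap. The CAF-1 subunits Chaf1a and Chaf1b stood at 48.7% and 41.7%. Exons of Ubxn6 on the opposite strand cover 52.5% of the exon bases of Chaf1a.

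Ratios of partner genes within a library do not depend on how libraries are scaled, so they were used to ask whether partners fell by different amounts. The pairs were also chosen with earlier results of these data known. Of the 21 pairs, 14 differed between the groups by a two-sided, exact permutation test that ran through all 70 assignments of libraries. The exact p was 0.0286 for each of these, the smallest this design allows, and the adjusted p over the 21 pairs was 0.0429, with no overlap between groups. That adjusted p is under 0.05 only because many of the chosen pairs share the smallest p, and some pairs share a gene. The share of other gene pairs that separate in the same way was not taken, so the count of 14 is a description. Some partners have the antisense overlap or pseudogene copies given above, among them Fen1, Mcm7, Pcna, Rrm2 and Uhrf1. The part of these in the ratios was not tested. Values below are log2 of the FPKM ratio, and differences carry standard errors.

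Within ribonucleotide reductase, the Rrm2 to Rrm1 log2 ratio was -0.54, -0.35, -0.42 and -0.76 in cocktail libraries 1 to 4, against 0.43, 0.41, 0.44 and 0.53 in untreated libraries 1 to 4. Rrm2 was thus the less abundant of the pair in every cocktail library and the more abundant in every untreated library. The difference was -0.97 ± 0.094. Against Rrm2b, the p53-induced alternative small subunit, Rrm2 differed by -1.54 ± 0.139, with a mean ratio of 3.4 in cocktail and 9.89 in untreated libraries. Tk1 differed by -1.56 ± 0.131 against Tk2, the mitochondrial thymidine kinase, with ratios of 0.289 in cocktail and 0.851 in untreated libraries.

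The Fen1 to Lig1 ratio moved the other way. Its log2 value was -0.20, -0.35, -0.02 and 0.07 in cocktail libraries 1 to 4, against -0.84, -0.63, -0.55 and -0.70 in untreated libraries 1 to 4. The groups did not overlap, and the value given for Fen1 fell less than that for Lig1, with a difference of 0.55 ± 0.112.

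Among subunits of single complexes, the Mcm5 to Mcm7 log2 ratio was -1.83, -1.75, -1.72 and -1.77 in cocktail libraries 1 to 4, against -1.14, -0.89, -0.99 and -0.90 in untreated libraries 1 to 4. The spread within each group was small, and the difference was -0.79 ± 0.063. Prim1 lost ground to Prim2 (-0.86 ± 0.129), with a ratio of 0.739 in cocktail and 1.34 in untreated libraries. Differences were -0.42 ± 0.083 for Pola1 to Pola2, -0.49 ± 0.109 for Pold1 to Pold2, -0.61 ± 0.209 for Gins1 to Gins3, -0.66 ± 0.106 for Rpa2 to Rpa3 and -1.20 ± 0.278 for Orc1 to Orc2. Between partners that act together, they were -0.76 ± 0.078 for Pcna to Rfc1, the large clamp loader subunit, and -0.71 ± 0.066 for Uhrf1 to Dnmt1. Mcm10 to Cdc45 differed by -0.33 ± 0.077, but adding 1 FPKM to both genes, which weighs on the lower Mcm10, turned this to 0.21. The same addition left Orc1 to Orc2 at -0.20 (exact permutation test, p = 0.0571).

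The other 7 pairs did not pass. The differences were -0.81 ± 0.289 for Orc1 to Orc6 and -0.53 ± 0.17 for Cdt1 to its inhibitor Gmnn (exact permutation test, adjusted p = 0.075 for each). For Pole to Pole2 the difference was -0.52 ± 0.18 and for Chaf1a to Chaf1b 0.23 ± 0.081 (exact permutation test, adjusted p = 0.1 for each). Rpa2 to Rpa1 differed by -0.12 ± 0.07 (exact permutation test, adjusted p = 0.126). Rfc3 to Rfc2 and Cdc6 to Cdt1 differed by 0.05 ± 0.159 and 0.02 ± 0.236 (exact permutation test, adjusted p = 0.9 and 0.914). These p-values do not show that the partners fell alike.

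**Figure D4:**
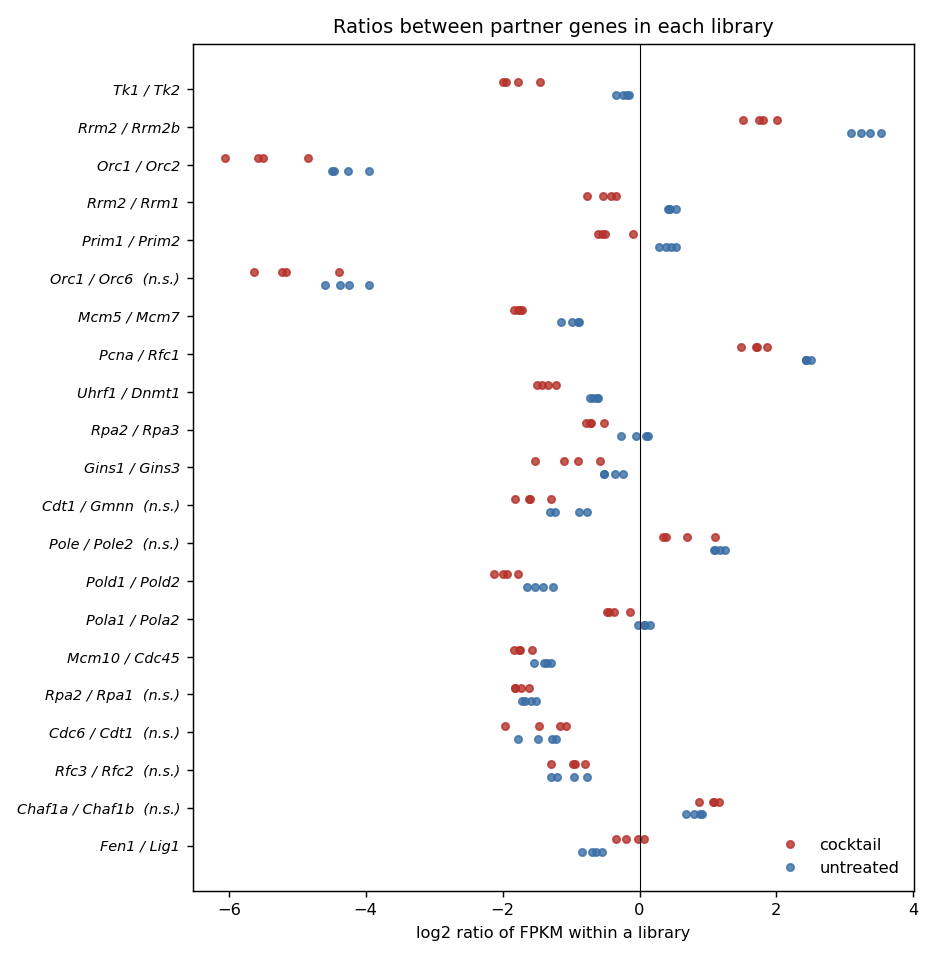
Log2 FPKM ratio of 21 partner pairs in each library, with the row of cocktail points above the row of untreated points for each pair. Pairs are ordered by the difference between the groups, from -1.56 for Tk1 to Tk2 at the top to 0.55 for Fen1 to Lig1 at the bottom, and the mark n.s. stands beside the 7 pairs that did not pass.

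Other genes of the pathway were read from lists of known function. Their counts stand beside 41.1% of all tested genes lower and 26.6% higher, or 33.6% and 36.1% under median-ratio rescaling. With quantile normalization these shares were 35.6% and 33.2%. Of 10 further subunits of the same complexes, 7 were called lower and 1 higher, with a median change of -0.19. Pole4, a small subunit of polymerase ε, had 11.6 ± 1.09 FPKM in cocktail libraries, against 19.4 ± 0.803 FPKM in untreated libraries (SD, n = 4 each). Its change was -0.70 and that of Rpa3 -0.49. Pold4 was called higher by 0.14, a call that voom on recovered fragments did not make (limma adjusted p = 0.075). Orc3 and Orc4 were not called, at 104.7% and 97.2% of the untreated mean, although Orc3 was called higher under both rescalings.

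Of 27 tested among 30 other replication factors, 24 were called lower and 1 higher, with a median of -0.57 (22 lower under median-ratio rescaling). The histone chaperone Asf1b changed by -1.36, with 2.98 ± 0.592 FPKM in cocktail libraries, against 9.16 ± 1.11 FPKM in untreated libraries (SD, n = 4 each). Top2a, which untangles sister DNA, had 17.1 ± 1.52 FPKM with the cocktail and 42.7 ± 3.17 FPKM untreated (SD, n = 4 each), a change of -1.27. Top1, the other topoisomerase named, was called higher by 0.11. Gmnn, the inhibitor of Cdt1, changed by -0.97.

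In the thymidylate and folate cycle 10 of 12 genes were called lower and none higher, with a median of -0.24 (8 and 6 lower under median-ratio and quantile scaling). Dck, a deoxynucleoside salvage kinase, had 3.86 ± 0.471 FPKM in cocktail libraries, against 8.34 ± 0.302 FPKM in untreated libraries (SD, n = 4 each), a change of -0.95. Mthfd1, which interconverts one-carbon forms of folate, changed by -0.70. In purine and pyrimidine synthesis 11 of 17 tested genes were lower and 2 higher, with a median of -0.18 (9 lower and 4 higher under median-ratio rescaling). Prps1 and Umps each changed by -0.57. Ctps, which makes CTP, was higher, with 172 ± 4.65 FPKM in cocktail libraries, against 119 ± 4.86 FPKM in untreated libraries (SD, n = 4 each), and Ctps2 was higher by 0.15.

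Of 17 tested E2F and pocket protein genes, 11 were called lower and 2 higher, with a median of -0.27. The repressor E2f8 had 1.18 ± 0.116 FPKM in cocktail libraries, against 4.703 ± 0.389 FPKM in untreated libraries (SD, n = 4 each), a change of -1.39, and E2f7 changed by -1.01. E2f3 and E2f4 were higher by 0.19 and 0.16. Of 16 G1/S cyclins, kinases and inhibitors, 11 were lower and 1 higher, with a median of -0.25 (8 lower and 3 higher under median-ratio rescaling). Ccna2, the S-phase cyclin A, had 5.28 ± 1.17 FPKM in cocktail libraries, against 19.4 ± 1.69 FPKM in untreated libraries (SD, n = 4 each), a change of -1.71. The inhibitor gene Cdkn2b was higher, with 149 ± 6.22 FPKM in cocktail libraries, against 58.4 ± 1.03 FPKM in untreated libraries (SD, n = 4 each), while the inhibitor gene Cdkn1c was lower, with a change of -2.30. Among genes that act early in G1, Ccnd2, Ccnd3 and Cdk6 were called lower, with changes of -0.68, -0.46 and -0.13, while Cdk4 and Ccnd1 were not called, at 98.7% and 107.5% of the untreated mean. The call of Cdk6 was lost under median-ratio rescaling (-0.06, limma adjusted p = 0.3) and quantile normalization (-0.07, limma adjusted p = 0.19).

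All 20 mitosis genes were called lower, with a median of -1.29, and 19 of them by at least 1 on the log2 scale. Aurkb, a mitotic kinase, had 3.13 ± 0.259 FPKM in cocktail libraries, against 12.7 ± 1.101 FPKM in untreated libraries (SD, n = 4 each), a change of -1.73, and Mki67, a marker of cycling cells, changed by -1.63. Of 19 tested genes of the replication checkpoint and fork repair, 16 were lower and none higher, with a median of -0.69. Of these 19, 9 were under 1 FPKM in every cocktail library and so entered the test through untreated libraries only, as did 5 of the 27 other replication factors and E2f7 and Mybl2 among the E2F genes. The counts and medians of these 3 lists are descriptions and no support for a fall. Fancd2, one of the 9 and a protein of the Fanconi anaemia pathway of crosslink repair, had 0.768 ± 0.0589 FPKM in cocktail libraries, against 2.64 ± 0.217 FPKM in untreated libraries (SD, n = 4 each), a change of -1.04.

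**Figure D5:**
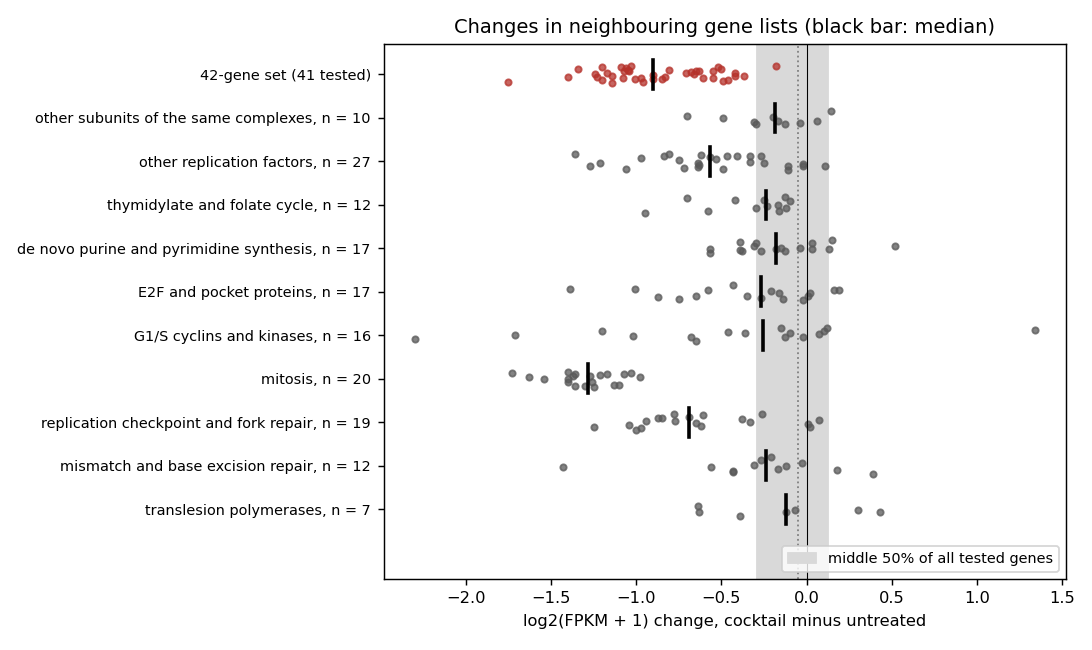
Fitted change of each tested gene, cocktail minus untreated, in log2(FPKM + 1), for the 41 tested replication and nucleotide supply genes and 10 lists of related genes. Points are genes, black bars are medians, the dotted line is the median of all tested genes and the grey band spans the middle 50% of them. The medians of the replication genes and the mitosis genes are at -0.90 and -1.29, and those of the other lists run from -0.69 to -0.12.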

How the data were processed

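Polyadenylated RNA was sequenced in 4 cocktail and 4 untreated libraries. Per the labels' protocols, TRIzol was used for RNA and a TruSeq Stranded mRNA kit for libraries. The authors deposited FPKM values per gene. Per the submitters' processing notes, the authors named DESeq and the build mm10. The aligner, the counting program and its use of strand were not given in the sources used here. Groups and replicate numbers came from sample titles, since 3 cocktail treatment labels spell C1q with other digits.

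Within a gene, FPKM ratios between libraries were ratios of whole numbers (relative tolerance 1e-11). Whole fragments were so obtained for each of the 16557 genes found in 2 or more libraries, or 99.8% of totals of 19195898 to 20640490 fragments. The 701 genes above 0 in 1 library were not recovered, and 4620 genes were at 0 throughout. Recovery gave the right ratios for 100% of 16366 genes of simulated data.

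The main test was limma 3.58.1 under R 4.3.3, two-sided, fitted with a mean-variance trend to log2(FPKM + 1) of genes that reached 1 FPKM in 4 or more libraries. On simulated data of 11723 genes for this comparison, it called 100% of genes at each fold from 0.25 to 4, with a coefficient of variation of 0.05, and 0.11% of unchanged genes. In that simulation 11524 genes were unchanged and genes varied independently between libraries. The real libraries differed in both respects, so these rates do not carry over to them. limma voom on recovered fragments took the place of count tools. Partner ratios were tested by exact permutation (Python 3.11.15, scipy 1.17.1). Replicate pairs had a chi-square per gene of 2.29 to 6.79 in cocktail and 2.11 to 4.50 in untreated libraries, over genes with at least 20 fragments. These values lie above 1, the value of sampling noise alone, and each library counted as 1 sample, following the labels.

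Alternatives were another pseudocount, other filters, rescaled libraries, no trend, a replicate block and left-out libraries. Counting intervals are not given because replicate spread was used.

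The 42 genes, the pathway and marker lists and the pairs were chosen with earlier results of these data known. In each role, the genes with the largest and smallest fitted change have every value printed, as have Pcna, Mcm2, Rrm2, Tyms, Tk1, Uhrf1 and Dnmt1. Values of Gins3, printed likewise, were added because its groups overlap. From each pathway list the 2 called genes with the largest change in each direction are named, except that 1 gene of the checkpoint list is not reported here, and a few others were named after their values were seen. Positions and promoters came from RefSeq's GRCm38.p6, and overlaps and copies (at least 95% identity over at least 200 bases) from GENCODE. Mm10 names this assembly.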

Additional observations from a re-analysis of the deposited data

Results flagged for a closer look

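In 84 sets of 4 libraries (42 genes in each group), the highest or lowest library was compared with the nearest of the others, as a share of the whole range. Chance puts about 1 in 20 such sets past Dixon's 95% critical value for 4 libraries, and 2 were past it. Pola1, the catalytic subunit of polymerase α, had 1.88 FPKM in cocktail library 4, against 2.13 to 2.15 FPKM in the other 3 cocktail libraries, a gap of 0.939 of the range. Pole2, the accessory subunit of polymerase ε, had 1.058 FPKM in cocktail library 3, against 0.799 to 0.822 FPKM in the other 3, a gap of 0.909 of the range. Both genes were called lower with each cocktail library left out.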

How the results depend on the processing

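Over the alternatives, 721 gene values kept their direction and their side of the threshold and 2 did not. The 2 were Pold2, at -0.11 under median-ratio rescaling (limma adjusted p = 0.091) and at -0.15 without cocktail libraries 1 and 2 (0.053). The number of genes called lower was 26 with a mean of at least 5 FPKM required, because 26 genes were then tested. It was 40 to 42 under the other alternatives and 41 with each library left out in turn. The median change was -1.03 with that filter, -1.13 with a pseudocount of 0.1 FPKM and -1.18 with voom. Without each library in turn it ran from -0.95 to -0.87. Deviations of same-numbered libraries had correlations of -0.044, 0.078, 0.086 and -0.007, against -0.105 to 0.053 for libraries with other numbers. Such small values cannot decide whether same-numbered libraries share a culture or batch. With the replicate block 41 genes were called lower with a median of -0.90, beside 4829 lower and 3121 higher calls over all genes. Of 252 ratio differences, 244 moved by less than the spread between libraries. The other 8 arose with 1 FPKM added to both genes, which weighs on weakly expressed genes, and 14 pairs passed in all. The sign changed in 9 of the 252, in 4 pairs. Mcm10 to Cdc45, which had passed, differed by 0.21 with 1 FPKM added. The other 3 pairs had not passed: Orc1 to Orc6 turned to 0.15 with the same addition, while Cdc6 to Cdt1 ran from -0.10 to 0.39 and Rfc3 to Rfc2 from -0.08 to 0.18. With a library left out the exact test cannot go below 0.0571 and paired sign flips cannot reach 0.05 either, so no count of pairs is given there. Counting any listed start, 65.7% of promoters held an E2F-type motif, against 10.9% of all genes, a choice made after seeing the data. Depth limits the weakest gene, Orc1, which had 14 fragments in 1 library.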

Other observations

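Repair genes outside the replication fork were also read from lists. Of 12 mismatch and base excision repair genes, 9 were called lower and 2 higher, with a median change of -0.24. Neil3, a DNA glycosylase, had 1.44 ± 0.126 FPKM in cocktail libraries, against 5.57 ± 0.3502 FPKM in untreated libraries (SD, n = 4 each), a change of -1.43 on the log2(FPKM + 1) scale. Ung, which removes uracil from DNA, changed by -0.56 and entered the test through untreated libraries only. Apex1, which cuts DNA at sites without a base, was higher, with 38.1 ± 1.63 FPKM in cocktail libraries, against 28.9 ± 1.16 FPKM in untreated libraries (SD, n = 4 each), and Polb, the main polymerase of base excision repair, was higher by 0.18. Of 7 tested genes of translesion DNA synthesis, not all of them polymerases, 4 were lower and 2 higher, with a median of -0.12. Rad18 and Polh changed by -0.64 and -0.63, while Mad2l2 and Rev3l, which belong to polymerase ζ, were higher by 0.43 and 0.30. All calls are from limma on all genes, in which 41.1% of genes were lower and 26.6% higher.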
